A study of Mus musculus with 16 samples.

Results

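The AP-1 and BATF transcription factors described here are 9 genes, *Fos*, *Fosb*, *Fosl2*, *Jun*, *Junb*, *Jund*, *Batf*, *Atf3* and *Maff*, taken by symbol from the gene lists of the deposited count matrices. All 9 were found among the 31053 genes of the lung and mesenteric lymph node (MLN) matrices and among the 32285 genes of the matrix that joins mediastinal lymph node (medLN) and MLN cells. Every mouse was a female IL-4eGFP reporter (4get) mouse on a C57BL/6 background that had received 500 larvae of the hookworm *Nippostrongylus brasiliensis* (Nb) under the skin 10 days before harvest, with antibiotics in the drinking water early after infection. In the first run CD4+IL-4eGFP+ cells came from lung and MLN of the same 2 mice, aged 13 weeks, and each organ of each mouse gave its own library, called lung 1, lung 2, MLN 1 and MLN 2. In the second run cells from the medLN and the MLN of 2 other mice aged 10 weeks carried hashtags for mouse and organ, and IL-4eGFP+ and IL-4eGFP- CD4+ cells were loaded as separate libraries, which gave 8 hashtag samples. In 4get mice the eGFP marks cells in which the *Il4* locus is transcribed, whether or not they secrete the cytokine. No uninfected mouse was analysed here.

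AP-1 is a dimer of proteins that bind DNA through a basic leucine zipper. FOS proteins need a JUN partner, JUN proteins can also pair with each other, and BATF pairs with JUN proteins and, in T cells, binds next to IRF4 at composite sites. Many of these genes are induced within a short time by T cell receptor signals, cytokines or cell stress through MAP kinases and SRF, and their mRNAs are short-lived. In Th2 cells, AP-1 acts with NFAT at cytokine genes, and JUNB and BATF are known to take part in the Th2 program.

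The kept cells numbered 416 to 2462 per library in the first run and 1992 to 2249 per hashtag sample in the second, with 2798232 to 14512767 UMIs in each. A median of 4971 to 6910 UMIs was found per cell in the first run and of 3166 to 3667 in the second. A UMI is 1 counted mRNA molecule, and levels are given below in CPM, the UMIs of a gene as a share of all UMIs outside TCR genes, scaled to the same total in each sample. Levels are compared between samples for 1 gene, not between genes. CD4 T cell markers summed to 3526 to 3676 CPM in the lung and 4507 to 4653 CPM in the MLN of the first run, while the markers of B cells (0.358 to 2.47 CPM) and granulocytes (0.898 to 1.43 CPM) were near 0 in all 4 libraries and *Sftpc*, which marks lung epithelium, was at 0. The 6 myeloid markers summed to 124 to 145 CPM, of which *Cst3* made 100 to 129 CPM, and *Lyz2*, *C1qa* and *C1qb* were at 0 in both lung libraries and at up to 15.2, 8.98 and 11.7 CPM in the MLN. The runs were processed separately, so levels of 1 run were not tested against the other. In MLN IL-4eGFP+ cells, the mean *Jund* level was 105 CPM in the first run and 553 CPM in the second, and that of *Jun* was 47.5 and 4.96 CPM, and the mice, library preparation and Cell Ranger version behind these values cannot be told apart.

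*Jun*, *Junb* and *Jund* are genes of 1 exon, and the other 6 genes have 3 to 5 exons in their longest coding transcripts (GENCODE, GRCm38). *Junb* overlaps *Prdx2* on the opposite strand, and *Jun* and *Jund* overlap the antisense genes *Junos* and *Gm11175*. *Prdx2* had a log2 fold change of 0.04 between lung and MLN (adjusted p = 0.847 with edgeR). To show the sequence before genes that moved together between lung and MLN, 150 bases before the RefSeq start (GRCm38.p6) follow for 5 of them, 5′ to 3′ on the strand of the gene. Motifs were searched on both strands over 250 bases before each start, namely the AP-1 site TGANTCA, the ATF/CREB site in the form TGACNTCA and its core TGACG, which lies within TGACGTCA, and capitals mark the matches:
Fos, chr12:85473740-85473889, plus strand: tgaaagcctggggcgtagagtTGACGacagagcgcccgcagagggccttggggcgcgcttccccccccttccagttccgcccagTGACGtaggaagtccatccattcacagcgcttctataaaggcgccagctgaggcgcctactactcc
Jun, chr4:95052223-95052372, minus strand: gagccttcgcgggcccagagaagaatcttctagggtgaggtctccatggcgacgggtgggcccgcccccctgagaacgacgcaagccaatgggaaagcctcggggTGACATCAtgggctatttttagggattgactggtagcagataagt
Junb, chr8:84978749-84978898, minus strand: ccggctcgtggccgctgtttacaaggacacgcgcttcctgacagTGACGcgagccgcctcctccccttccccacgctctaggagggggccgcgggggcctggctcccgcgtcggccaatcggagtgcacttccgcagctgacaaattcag
Atf3, chr1:191183334-191183483, minus strand: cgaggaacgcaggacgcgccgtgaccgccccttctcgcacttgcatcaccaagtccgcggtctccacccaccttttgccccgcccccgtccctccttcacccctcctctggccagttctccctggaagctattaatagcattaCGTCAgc
Maff, chr15:79347370-79347519, plus strand: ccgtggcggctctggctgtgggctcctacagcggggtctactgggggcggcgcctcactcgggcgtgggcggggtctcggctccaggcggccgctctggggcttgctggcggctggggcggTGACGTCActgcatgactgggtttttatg
TGANTCA was found in the windows of 0 of the 9 genes and in 6.75% of 32851 such windows of all genes, or for 2113 of 27025 genes. TGACNTCA was found for *Jun* (as TGACATCA, 45 to 38 bases before the start) and *Maff*, and in 7.49% of all windows (2310 genes). TGACG was found for *Fos*, *Fosb*, *Junb*, *Batf*, *Atf3* and *Maff*, and in 17.8% of all windows (5347 genes). *Maff* had other RefSeq starts that are not printed. The window ending at chr15:79348401 held TGACATCA, and that ending at chr15:79346620 held no match. *Fosl2* and *Jund* held none of these letters in the window. The *Jund* window ends at chr8:70697738, upstream of the GENCODE start of the gene at 70698949, so it does not describe the bases next to that start. The *Atf3* window lies inside the GENCODE gene, which on the minus strand begins at chr1:191218039. The *Fosl2* window ends at chr5:32136471, inside the GENCODE gene that begins at 32135801. Neither window describes the bases next to the GENCODE start. A match is a description of the sequence and shows no binding.

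Whether Th2 cells differ between a peripheral organ and a lymph node was asked with lung against MLN. All FOS and JUN members, *Atf3* and *Maff* were higher in lung, 8 of the 9 genes, and *Batf* was not called. *Atf3* reached the cutoff of the filter on low counts (1.55 CPM) in neither MLN library and *Fosl2* in 1, so that both entered the test through the lung and their calls carry no weight. Over all genes, 3284 of 10588 tested (31.0%) were called at an adjusted p of 0.05, 1803 of them higher in lung. The median log2 fold change was 4.13 over the 9 genes and -0.01 over all genes tested. The lung alone was digested with enzymes, passed through Percoll and treated for lysis of erythrocytes, whereas nodes were only pressed through a strainer, so organ and preparation cannot be told apart in any lung result below. Perfused lung also holds some cells of the blood vessels. Genes of a list of early-response and heat shock genes moved as well, with 22 of 28 higher in lung, 1 lower and 5 not called. Their summed level was 12631 and 14157 CPM in the lung libraries against 4250 and 4513 CPM in those of the MLN. This list and the 9 genes were chosen with earlier results of these data known, so the counts of both are descriptions. The part of the early-response genes in the result was not tested.

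Among the FOS proteins, *Fos*, the prototype of the family, was at 453 CPM in lung 1 and 784 CPM in lung 2, against 47.4 CPM in MLN 1 and 10.6 CPM in MLN 2. The lowest lung value lay far above the highest MLN value, and the fold differed widely between the mice, with 9.55-fold in mouse 1 and 74.3-fold in mouse 2. The log2 fold change of *Fos* was 4.38 ± 0.487 (SE, edgeR quasi-likelihood test, Benjamini-Hochberg adjusted p = 0.000156, n = 2 mice per organ), and 5.99 without MLN 1. *Fosb*, a further inducible FOS protein, was at 126 and 147 CPM in the lung libraries and at 11.3 and 2.47 CPM in the MLN libraries (log2 fold change 4.14 ± 0.344, adjusted p = 2.3e-05), which is 11.1-fold in mouse 1 and 59.5-fold in mouse 2. Without MLN 1 its log2 fold change was 5.90. *Fosl2*, which encodes FRA2, was at 234 and 138 CPM in lung and at 1.38 and 2.25 CPM in MLN, where 30 UMIs were counted in all. In mouse 1 the lung level of *Fosl2* was 169-fold and in mouse 2 61.3-fold that of the MLN.

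All 3 JUN genes were higher in lung, with the largest fold for *Junb*. *Junb* reached 5378 CPM in lung 1 and 4563 CPM in lung 2, against 401 CPM in MLN 1 and 223 CPM in MLN 2. Its log2 fold change was 4.13 ± 0.287 (adjusted p = 7.9e-06), a 17.5-fold difference. *Jun*, which encodes c-JUN, was at 131 and 125 CPM in lung and at 64.3 and 30.8 CPM in MLN (log2 fold change 1.51 ± 0.260, adjusted p = 0.00216), with a log2 fold change of 2.20 without MLN 1. *Jund*, the JUN member with the steadiest expression in most resting cells, was at 301 and 229 CPM in lung and at 96.3 and 113 CPM in MLN (log2 fold change 1.50 ± 0.176, adjusted p = 0.000220). No lung value of a JUN gene overlapped with an MLN value, which with 2 mice per organ is a description and not a test. How many of all genes separate in this way was not counted. The 95% interval of the log2 fold change was 3.48 to 4.77 for *Junb*, 0.93 to 2.09 for *Jun* and 1.10 to 1.89 for *Jund*.

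*Atf3*, a stress-induced partner of JUN proteins, was counted almost only in lung. It had 387 UMIs in lung 1 and 115 in lung 2 (45.6 and 41.2 CPM), and 1 UMI in MLN 1 and 2 in MLN 2 (0.0692 and 0.449 CPM). The pooled lung level was 280 times the MLN level with a counting interval of 95.4 to 1364, given without a test, and the fitted log2 fold change moved from 6.68 without MLN 1 to 9.15 without MLN 2. *Maff*, a small MAF protein without an activation domain, was at 34.5 and 23.3 CPM in lung and at 1.94 and 2.02 CPM in MLN (log2 fold change 4.07 ± 0.296, adjusted p = 1.0e-05).

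*Batf*, the partner of JUN proteins beside IRF4, was not called. Its level was 183 CPM in lung 1, 134 CPM in lung 2, 157 CPM in MLN 1 and 149 CPM in MLN 2, so that the lung values enclosed the MLN values. The log2 fold change was 0.21 with a 95% interval of -0.18 to 0.60 (adjusted p = 0.397). Single libraries decided this value. Without lung 2 it was 0.46 (adjusted p = 0.00898), and without lung 1 it was -0.14 (adjusted p = 0.464).

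**Figure D1:**
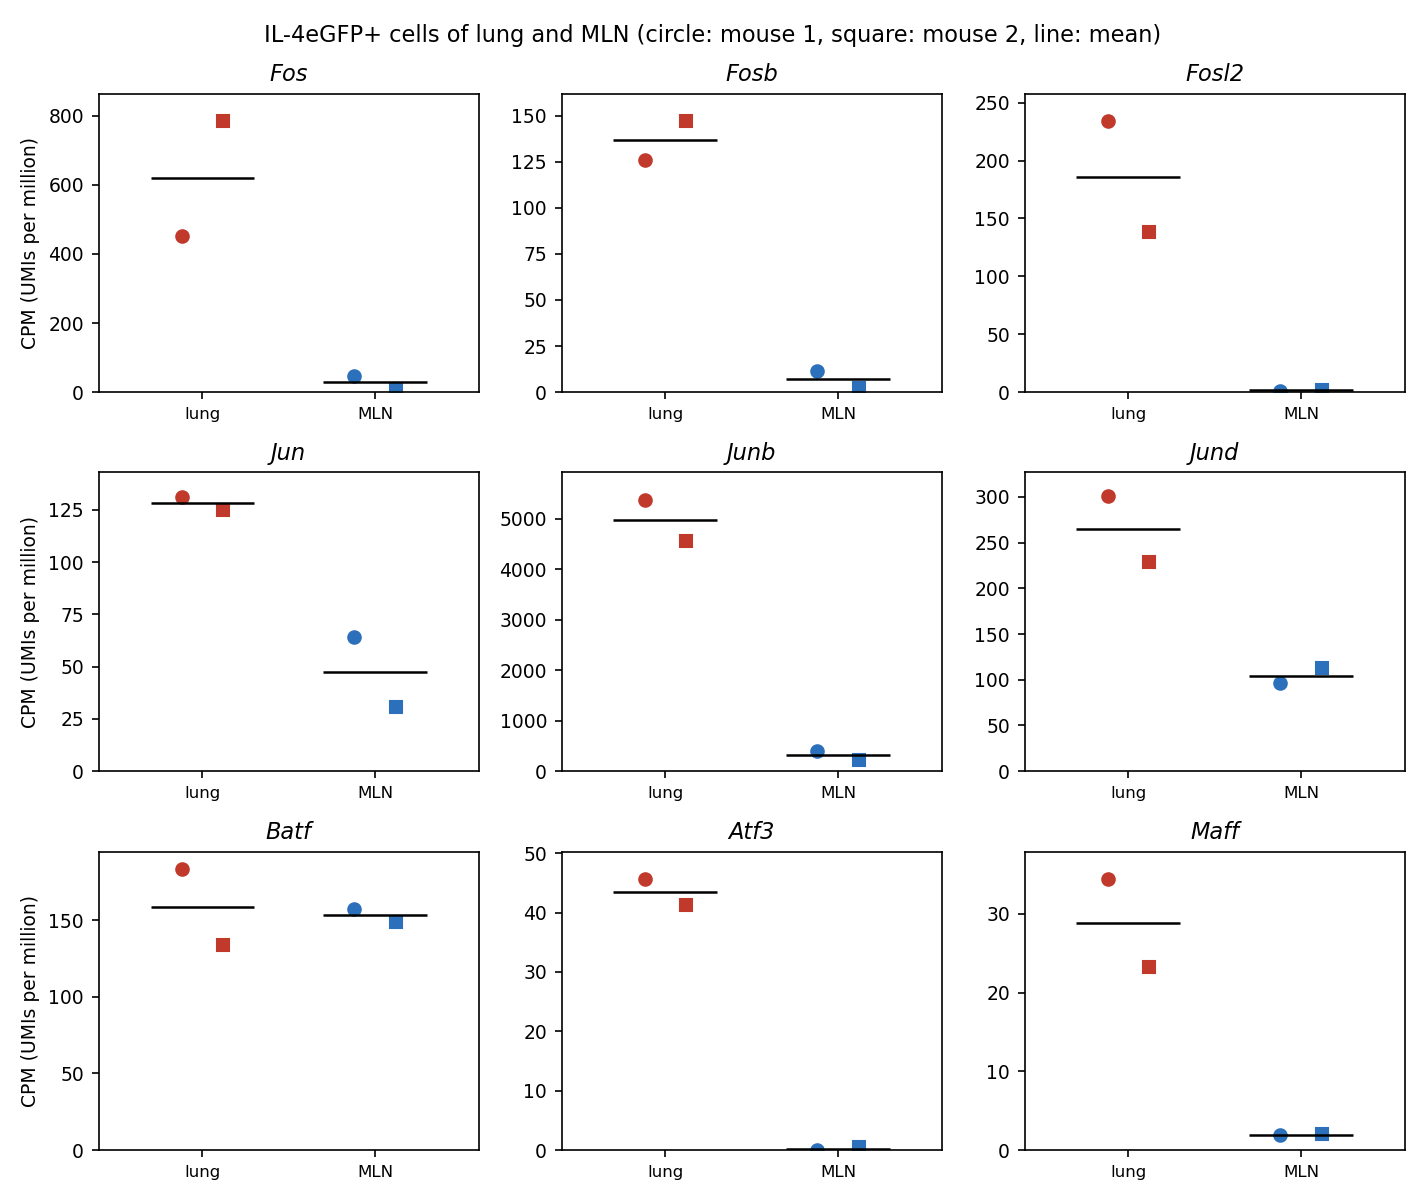
Level of each gene in CPM (linear axis from 0, a scale of its own in each panel) in IL-4eGFP+ cells of lung and MLN, with circles for mouse 1, squares for mouse 2 and lines for the mean of 2 mice. For 8 genes both lung values lie above both MLN values, as for *Jun* (125 against 64.3 CPM for the nearest pair) and *Junb* (4563 against 401 CPM), while the *Batf* values of lung (134 and 183 CPM) enclose those of the MLN. With 2 mice per organ such a separation is a description and not a test. The share of all genes that separate so was not counted, and 17.0% of those tested were called higher in lung.

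To compare cells at equal depth, 2000 UMIs were drawn at random from each cell, and the 8 to 51 cells per library with fewer UMIs were dropped. *Junb* was then found in 98.3% of the cells of lung 1 (exact 95% interval 97.3 to 99.0) and 98.0% of lung 2, against 52.2% of MLN 1 (50.2 to 54.2) and 31.5% of MLN 2. Before thinning these shares were 99.5%, 99.3%, 77.0% and 57.3%. The median thinned cell held 10 and 9 *Junb* UMIs in the lung libraries and 1 and 0 in the MLN libraries. The mean was 11.5 and 10.4 UMIs in lung and 0.939 and 0.472 in MLN. A share of cells with a UMI rises with the mean count. The shares therefore cannot tell more expressing cells from more molecules per cell. How many of these UMIs came from RNA free in the suspension was not measured. The intervals cover counting error only, not the difference between mice.

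*Fos* was found in 45.3% and 61.8% of thinned lung cells and in 9.12% and 1.48% of thinned MLN cells. *Fosl2* was found in 33.3% and 20.3% of lung cells and in 0.290% and 0.538% of MLN cells, and *Atf3* in 4.87% and 6.13% of lung cells and in 0.0415% (1 cell) and 0% of MLN cells. The exact interval of 0 of 743 cells ends at 0.495%, which bounds cells with a UMI at this depth and not cells that express the gene, and before thinning 1 cell of MLN 2 held *Atf3* UMIs. *Batf* was found in 26.8% and 21.1% of lung cells and in 22.5% and 20.9% of MLN cells, with intervals that overlap between the organs of each mouse.

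**Figure D2:**
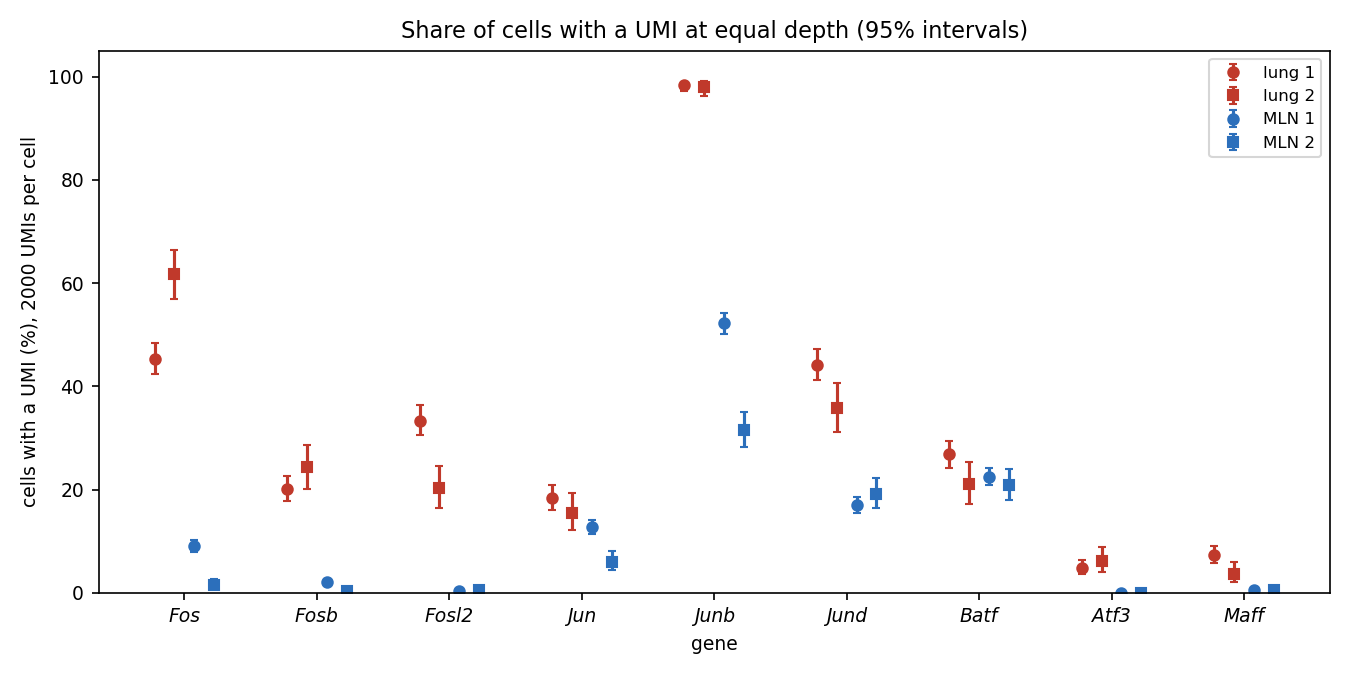
Percent of cells with at least 1 UMI of each gene after each cell was thinned to 2000 UMIs, with exact 95% intervals, in lung (red) and MLN (blue) of mouse 1 (circles) and mouse 2 (squares). *Junb* is found in nearly every lung cell (98.3% and 98.0%), *Fos* and *Fosl2* in 20.3% to 61.8% of lung cells and few MLN cells, and *Batf* in 20.9% to 26.8% of cells in all 4 libraries.

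Cells also differed in how many of the 9 genes they held. At equal depth the median was 3 genes per cell in both lung libraries and 1 in both MLN libraries. At least 4 of the genes were found in 32.5% and 29.4% of lung cells against 1.33% and 0.135% of MLN cells, and none in 0.375% and 0.245% of lung cells against 26.6% and 42.5% of MLN cells. Within a lung library, pairs of *Fos*, *Fosb*, *Fosl2*, *Junb*, *Jund* and *Batf* were only weakly related in their counts over thinned cells. Spearman correlations were -0.05 to 0.24 over 15 pairs in 1068 or 408 cells, the highest being *Fos* with *Junb* (0.18 and 0.24). *Jun*, *Atf3* and *Maff*, found in fewer of the thinned lung cells, were not paired. Cells of a library share its preparation, and counts this sparse hold correlations near 0.

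**Figure D3:**
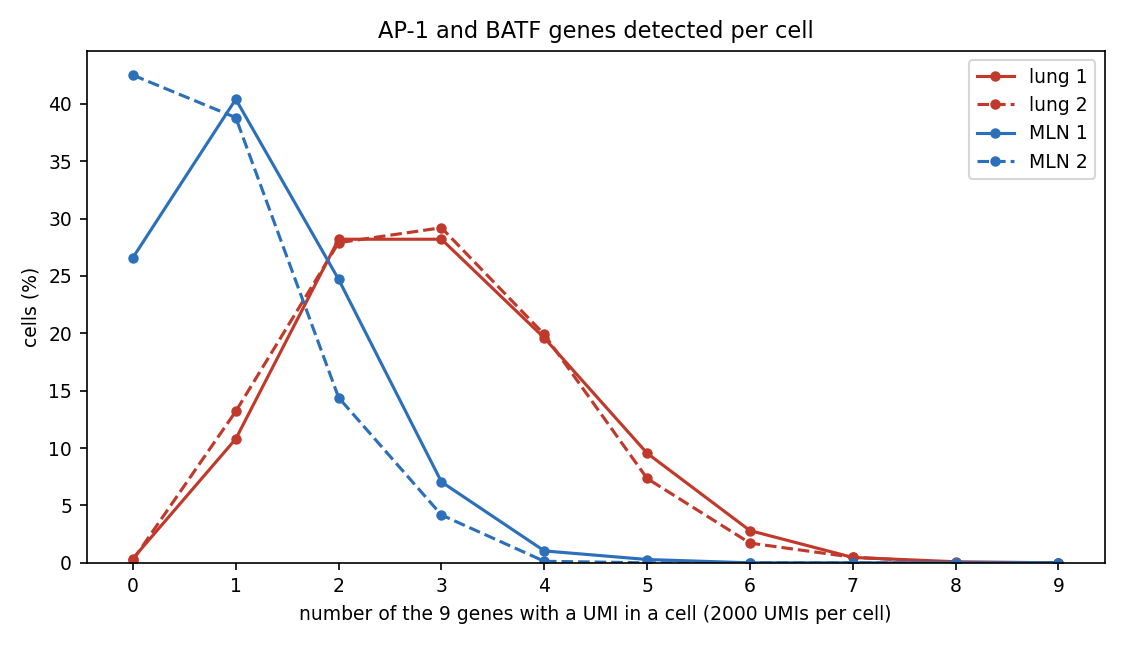
Percent of cells (y axis) by the number of the 9 genes with a UMI in the cell (x axis) after thinning to 2000 UMIs, for lung (red) and MLN (blue) of mouse 1 (solid) and mouse 2 (dashed). Lung cells center on 2 to 4 genes with a median of 3, and MLN cells on 0 to 2 with a median of 1.

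Cells of the organs are a mix of states, so the comparison was repeated in cycling cells and in cells of shared clones, both chosen without these 9 genes. Cycling cells had UMIs of at least 3 of 10 cell cycle genes and numbered 97 and 40 in the lung and 124 and 37 in the MLN libraries. *Junb*, *Jund* and *Batf* reached the cutoff of the filter (9.81 CPM) in all 4 libraries, and *Junb* and *Jund* were higher in lung (9.28% of 7620 genes were called, 514 higher and 193 lower). *Fos*, *Fosb*, *Fosl2*, *Jun* and *Atf3* reached it in both lung libraries and at most 1 MLN library, so that their calls follow in part from the filter and are not counted. *Junb* was at 3501 and 2447 CPM in cycling lung cells against 182 and 125 CPM in cycling MLN cells (log2 fold change 4.26 ± 0.186, adjusted p = 4.6e-14). *Jund* was at 243 and 163 CPM against 68.4 and 71.7 CPM (log2 fold change 1.62 ± 0.215, adjusted p = 6.1e-06). *Fos* was at 350 and 517 CPM in cycling lung cells and at 24.8 and 1.84 CPM in cycling MLN cells, and *Jun* at 95.6 and 113 CPM against 38.0 and 5.52 CPM, with 1 and 3 UMIs behind the MLN 2 values. *Fosl2* had 3 UMIs in all cycling MLN cells, a ratio of 93.2 with a counting interval of 31.5 to 455, and *Atf3* had none and was at least 35.0-fold higher in lung, against a floor of 3 UMIs over both libraries. *Batf* did not pass the test (log2 fold change 0.24, interval -0.18 to 0.65, adjusted p = 0.557). With DESeq2 *Jun* did not pass in cycling cells (2.23, adjusted p = 0.650). Without cells of the cycling gate, a setting chosen after seeing the data, the same comparison called 3265 genes in all and 8 of the 9 genes. *Atf3* and *Fosl2* were among these, with 3 and 27 UMIs in the MLN, and their calls carry no weight, as in all cells.

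The other set held cells of T cell clones, with the same TCRα and TCRβ chains, that were found in lung and MLN of the same mouse, 105 clones in mouse 1 and 21 in mouse 2. These cells were matched by TCR and not by state, and 3 of the 10 cell cycle genes were called higher in their lung cells. Of the 4 genes that reached the cutoff of the filter (14.3 CPM) in all 4 libraries, *Junb* and *Jund* were higher in the lung cells of these clones and *Jun* and *Batf* were not called (7.06% of 6979 genes were called, or 799 with mouse as a block in place of 493). *Fos* and *Fosb* reached the cutoff in 1 MLN library and *Fosl2* and *Maff* in neither, so that their calls follow in part from the filter and are not counted. *Junb* was at 4873 and 5034 CPM in lung and at 440 and 321 CPM in MLN (log2 fold change 3.76 ± 0.200, adjusted p = 2.0e-07). *Jund* was at 312 and 231 CPM against 109 and 76.3 CPM (log2 fold change 1.61 ± 0.246, adjusted p = 0.000893). Clones of a mouse share its libraries and their preparation and are not replicates, so counts of clones are descriptions. Such counts were not made for other genes, and depth was not made equal for them. In all kept cells the median was 6910 and 5766 UMIs per lung cell and 4980 and 4971 per MLN cell. Clone by clone, the level of *Junb* was higher in lung in 102 of 105 clones of mouse 1 and 21 of 21 of mouse 2. *Fos* was higher in lung in 83, lower in 11 and equal in 11 of the 105 clones, and higher in 20 of the 21. *Fosl2* had no UMI in the MLN cells of the shared clones and 300 in their lung cells, at least 83.8-fold higher. *Batf* was higher in lung in 53 and in MLN in 38 of the 105 clones, and in 7 and 9 of the 21 (log2 fold change 0.11, adjusted p = 0.901). *Jun* missed the threshold (log2 fold change 1.70, adjusted p = 0.0658), with 91.6 and 356 CPM in lung and 70.8 and 30.5 CPM in MLN. Its lung level was 1.29-fold that of the MLN in mouse 1 and 11.7-fold in mouse 2, where MLN 2 held 4 UMIs. By clone, *Jun* was higher in lung in 39, lower in 25 and equal in 41 of the 105, and in 9, 1 and 11 of the 21. *Jun* passed the threshold with mouse as a block in the paired fit (1.25, adjusted p = 2.4e-05), with no filter on low counts (1.71) and with clones matched by TCRβ alone (1.56). Without lung 1, MLN 1 or MLN 2, which leaves 1 mouse in an organ, its log2 fold change was 2.52, 2.71 or 1.52. *Maff* had 57 UMIs in the lung cells and 1 in the MLN cells of these clones, a ratio of 47.8 with a counting interval of 8.24 to 1920.

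**Figure D4:**
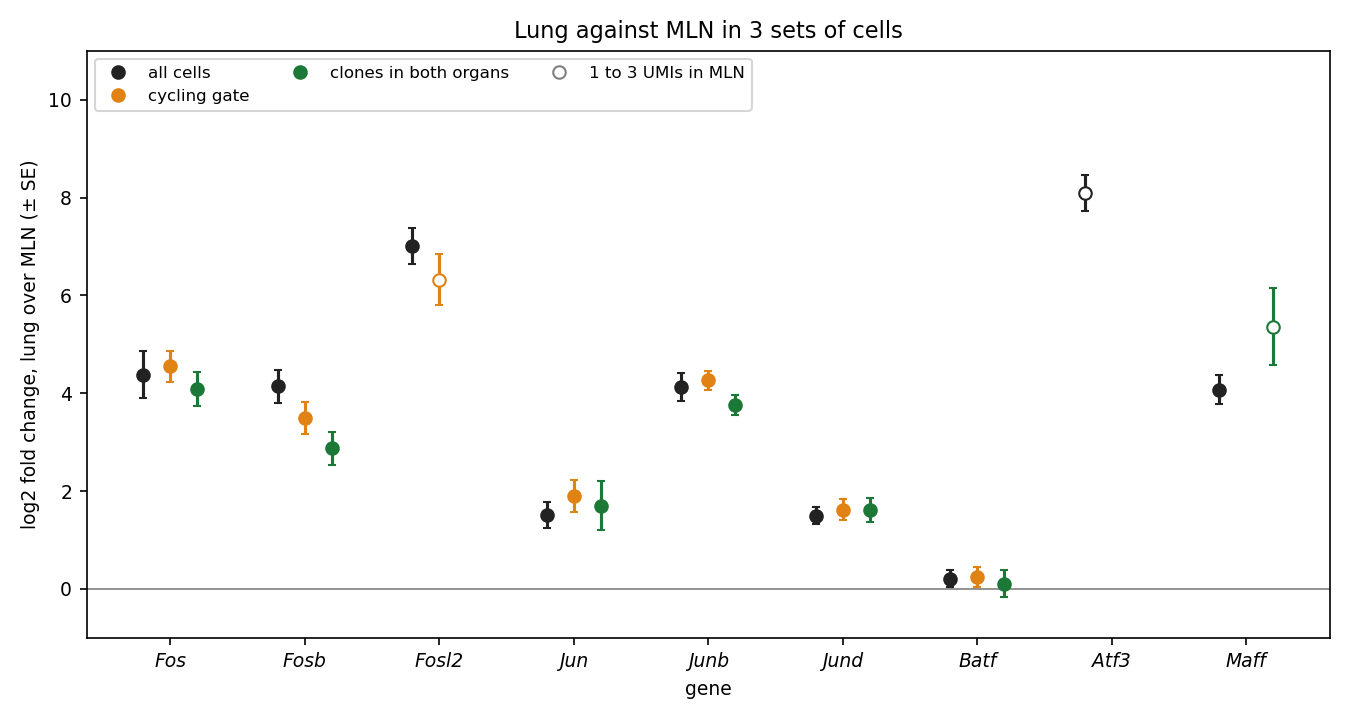
Log2 fold change of lung over MLN with its SE (edgeR, 2 mice per organ) for each gene in all cells, cycling cells and cells of clones in both organs. Open symbols have 1 to 3 UMIs in the MLN and depend on the prior count of the fit, and genes at 0 UMIs in the MLN or under the filter are not drawn. *Junb* lies between 3.76 and 4.26 in the 3 sets and *Jund* between 1.50 and 1.62, whereas *Batf* is at 0.11 to 0.24.

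Lung cells with a UMI of *Il5* or *Il13*, the effector cytokines of Th2 cells, were compared with the other lung cells of the same library without a test. *Junb* was at 5432 and 3751 CPM in the 351 and 88 cells with a cytokine UMI, and at 5349 and 4837 CPM in the others. *Fosl2* was at 234 and 120 CPM against 234 and 143 CPM, and *Batf* at 165 and 140 CPM against 193 and 131 CPM. *Junb* was thus close to the other cells in the cytokine cells of lung 1 and lower in those of lung 2. *Fos* (406 and 546 CPM against 479 and 865 CPM) and *Maff* (23.6 and 5.67 CPM against 40.5 and 29.3 CPM) were lower in the cytokine cells of both libraries, and *Jund* (312 and 272 CPM against 295 and 214 CPM) was higher in both. The *Maff* value of the cytokine cells of lung 2 rests on 4 UMIs. Cells that lacked a productive TCRα or TCRβ contig, 523 and 208 in the lung libraries, were left out above. *Jun* was at 672 and 1219 CPM in them, against 131 and 125 CPM in the lung cells with both contigs, and with cells of both kinds its log2 fold change between lung and MLN was 2.79 (adjusted p = 0.000542). *Junb* (6308 and 6989 CPM), *Fos* (517 and 1132 CPM), *Fosb* (158 and 259 CPM) and *Jund* (412 and 306 CPM) were also higher in both lung libraries in the cells without contigs. *Fosl2* (301 and 145 CPM against 234 and 138 CPM), *Atf3* (79.6 and 43.6 CPM against 45.6 and 41.2 CPM) and *Maff* (45.3 and 25.2 CPM against 34.5 and 23.3 CPM) were higher in lung 1 and close in lung 2. The lung 2 values without contigs rest on 126, 38 and 22 UMIs, and counting error was not measured for them. *Batf* was at 197 and 125 CPM in the cells without these contigs. In these cells the CD4 T cell markers summed to 2846 and 2867 CPM, the myeloid markers to 549 and 492 CPM (132 and 128 CPM with contigs) and the early-response list to 20924 and 23878 CPM, and their part in the *Jun* level was not tested. In the MLN, cells without contigs were at 88.1 and 32.2 CPM of *Jun*, against 64.3 and 30.8 CPM with them, and held myeloid markers at 1603 and 2031 CPM and B cell markers at 120 and 273 CPM.

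The other genes of the pathway were counted by list, beside 17.0% of all genes higher and 14.0% lower in lung, and genes are named here and for the gates from those with a mean of at least 20 CPM. Of 25 further leucine zipper genes tested between lung and MLN, 9 were higher, 2 lower and 14 not called, with a median log2 fold change of 0.34. Of these, *Crem*, an inducible CREB family gene, rose most (4.68 ± 0.365, adjusted p = 1.5e-05), followed by *Nfil3* (2.05, adjusted p = 0.000165) and *Atf4* (1.08, adjusted p = 0.000376), while *Atf6b* was lower (-0.37, adjusted p = 0.0377). Of 19 MAP kinase and SRF genes, 5 were higher, among them *Map2k3* (1.05), *Map2k4* (0.67) and the p38 kinase gene *Mapk14* (0.56), 2 were lower, *Map2k6* (-0.79) and *Elk4* (-0.36), and 12 were not called, a share near that of all genes. *Map2k3* and *Map2k6*, with opposite directions, both encode activators of p38. Of 5 genes for DNA-binding partners, only *Irf4* was called (1.96 ± 0.164, adjusted p = 2.4e-05), and *Irf8* and the 3 NFAT genes were not. Of 11 T cell genes known as AP-1 targets, 6 were higher in lung, with *Ctla4* at 2.51 ± 0.157 and *Il13* at 3.29 ± 0.664, 1 was lower and 4 were not called. *Il5* is among the 6 and had no UMI in MLN 2. In the early-response list *Nr4a2* (5.21), *Nr4a1* (4.96) and *Gadd45b* (4.82) were higher, and *Egr2* was the lower gene (-1.48, adjusted p = 0.000604).

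Whether the site of the node matters was asked with medLN, which drains the lung, against MLN in the second run. In IL-4eGFP+ cells 0 of the 7 genes that passed the filter were called with edgeR, 0 had an unadjusted p under 0.05 and DESeq2 called 0, with 1.28% of 11263 genes called in all. *Junb* was at 200 and 209 CPM in medLN against 162 and 194 CPM in MLN (log2 fold change 0.19, interval -0.01 to 0.39, adjusted p = 0.443). *Fos* was at 13.6 and 6.13 CPM against 4.91 and 7.55 CPM, and *Jund* at 501 and 588 CPM against 530 and 576 CPM, with overlapping organs in both cases. *Batf* was at 150 and 171 CPM in medLN and 158 and 218 CPM in MLN (log2 fold change -0.24, adjusted p = 0.558), and without MLN 1 this became -0.46 (adjusted p = 0.0272). *Fosl2* stood at 1.42 to 3.70 CPM and *Fosb* at 0.317 to 1.48 CPM in these 4 samples, and *Atf3* (0 to 0.529 CPM) and *Maff* (0.950 to 1.48 CPM) were under the filter. The 95% interval of *Fos* ended at 1.48 here.

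In IL-4eGFP- cells, 0 of 6 genes were called without a block with edgeR, with 3 at an unadjusted p under 0.05, and DESeq2 called 0 (0.178% of 10684 genes were called with edgeR). With mouse as a block in the paired fit, *Junb* (0.38, adjusted p = 0.00375), *Batf* (0.38, adjusted p = 0.0323) and *Jund* (0.23, adjusted p = 0.0469) passed, each higher in medLN, and 65 genes in place of 19 were called. Without the block their adjusted p was 0.149, 0.436 and 0.519. *Junb* was at 157 and 189 CPM in medLN and at 126 and 129 CPM in MLN, *Batf* at 98.0 and 97.1 CPM against 63.8 and 81.2 CPM, and *Jund* at 945 and 967 CPM against 731 and 846 CPM. None of the 3 overlapped between the organs, a description with 2 mice per organ, and the share of all genes without overlap was not counted. Leaving out 1 sample left 1 mouse in an organ, so that calls of those fits are not counted here. The log2 fold change of *Junb* was 0.51 without medLN 1, 0.35 without MLN 1 and 0.42 without MLN 2. That of *Batf* was 0.37 without medLN 1, 0.38 without medLN 2 and 0.57 without MLN 2, and that of *Jund* 0.35 without MLN 2.

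Cells with and without the IL-4 reporter were compared over both organs. Each gate is also 1 library, so gate and library cannot be told apart. The IL-4eGFP- cells were all CD4+ cells without the reporter and were not sorted by activation. The Th2 state therefore cannot be told apart from activation either. Of 6 genes tested, *Fos* and *Batf* were higher and *Jun* and *Jund* lower in IL-4eGFP+ cells, in a comparison that called 63.0% of 11035 genes. Of all genes tested, 31.3% were higher and 31.8% lower, so the counts of the 6 genes lie near these shares. *Batf* was at 150 to 218 CPM in the 4 IL-4eGFP+ samples (mean 174 ± 30.3, SD) and at 63.8 to 98.0 CPM in the 4 IL-4eGFP- samples (mean 85.0 ± 16.1), with a log2 fold change of 0.85 ± 0.135 (adjusted p = 0.000150). *Jun* was at 3.59 to 5.67 CPM against 10.4 to 14.4 CPM (log2 fold change -1.77 ± 0.156, adjusted p = 8.5e-07), and *Jund* at 501 to 588 CPM against 731 to 967 CPM (-0.86 ± 0.0706, adjusted p = 4.4e-07). Neither gene overlapped between the gates, and how many of all genes do the same was not counted. *Fos* was low in both, at 4.91 to 13.6 CPM against 3.05 to 4.92 CPM, a difference of 0.82 ± 0.257 (adjusted p = 0.0146) that was lost without the IL-4eGFP+ medLN sample of mouse 1 (0.50, adjusted p = 0.0628). *Junb*, at 162 to 209 CPM and 126 to 189 CPM, missed the threshold (0.17, adjusted p = 0.0666) and passed it with mouse as a block in the paired fit (0.16, adjusted p = 0.0190), without IL-4eGFP+ MLN 1 (0.20), without IL-4eGFP- medLN 2 (0.25) and with no filter on low counts (0.17, adjusted p = 0.0343). *Fosl2* was at 1.42 to 3.70 CPM and 2.34 to 3.05 CPM (log2 fold change -0.06, interval -0.69 to 0.56). Of 10 AP-1 target genes of T cells, 8 were higher in IL-4eGFP+ cells, *Il4* of the sort gate and *Ctla4* (0.52) included, and 1 was lower, *Cd69* (-0.31). *Il4* follows from the sort. *Il5* and *Il13* had no UMI in any IL-4eGFP- sample, so they could pass the filter only through the IL-4eGFP+ samples. The count of 8 is therefore a description and carries no weight. Of the 5 partner genes, *Irf4* (1.70), *Nfatc1* (1.03) and *Nfatc2* (0.69) were higher and *Nfatc3* (-0.20) lower. Of 23 further leucine zipper genes 10 were higher, among them *Maf* (3.06), *Nfil3* (1.77) and *Cebpb* (0.68), and 9 lower, among them *Bach2* (-2.87), *Atf7* (-0.65) and *Nfe2l2* (-0.63). Of 19 MAP kinase and SRF genes 6 were higher, among them *Map2k3* (1.04), *Map3k5* (0.93) and *Mapk3* (0.64), and 7 lower, among them *Mrtfa* (-0.52), *Mapk14* (-0.42) and *Srf* (-0.42). Both MAP kinase and SRF counts are near the shares of all genes. Of 27 early-response and heat shock genes 6 were higher, among them *Gadd45b* (1.22), *Egr2* (0.94) and *Hsp90aa1* (0.83), and 13 lower, among them *Myc* (-1.74), *Socs3* (-1.31) and *Zfp36* (-0.83). All 10 genes of the cycling gate were higher in IL-4eGFP+ cells, and myeloid markers summed to 171 to 248 CPM in them against 104 to 126 CPM, and the part of either was not tested. Among cycling cells alone, *Batf* was at 121 to 202 CPM in IL-4eGFP+ samples (208 to 278 cells each) and at 149 to 266 CPM in IL-4eGFP- samples (28 to 41 cells each), values that overlap. In cycling medLN cells it was lower in the IL-4eGFP+ gate in both mice (121 and 146 CPM against 266 and 193 CPM). In cycling MLN cells it was at 151 and 202 CPM against 149 and 154 CPM. *Jun* was at 2.87 to 3.77 CPM against 6.77 to 13.6 CPM in these cells, from 10 to 14 and 2 to 5 UMIs per sample. At such counts the lack of overlap between the gates carries little weight. *Jund* was at 372 to 499 CPM against 399 to 698 CPM.

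Within the IL-4eGFP- gate, cells with a UMI of *Foxp3*, the defining factor of regulatory T cells, were set against the other cells of the gate without a test. *Jun* was at 26.7 to 55.6 CPM in these 189 to 257 cells per sample, against 8.96 to 10.5 CPM in the 1834 to 2060 other cells of the gate. *Batf* was at 142 to 268 CPM in the *Foxp3* cells, against 56.6 to 76.2 CPM in the others, and *Junb* at 193 to 315 CPM against 117 to 169 CPM. The ranges did not overlap for these 3 genes, while *Jund* was at 800 to 964 CPM in the *Foxp3* cells and 724 to 968 CPM in the others. Genes without overlap were not counted over all genes. The *Batf* level was not particular to these cells, with 149 to 266 CPM in cycling IL-4eGFP- cells and 150 to 218 CPM in IL-4eGFP+ samples. In cycling IL-4eGFP- cells *Junb* was at 183 and 209 CPM in medLN and 91.4 and 106 CPM in MLN, and *Jun* at 6.77 to 13.6 CPM. IL-4eGFP+ cells with a *Foxp3* UMI, 21 to 65 per sample, were at 173 to 362 CPM of *Batf* and 0 to 37.5 CPM of *Jun* (0 to 5 UMIs).

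Whether the organ difference itself differs between the gates was tested as an interaction, and 0 of 7 genes were called with edgeR, 1 at an unadjusted p under 0.05 and 0 with DESeq2 (0.156% of 11535 genes were called). The gene with the low unadjusted p was *Batf*, with an organ difference that was 0.61 lower on the log2 scale in IL-4eGFP+ cells (-0.61 ± 0.214, adjusted p = 0.555 with edgeR). In both mice *Batf* was lower in medLN than in MLN in the IL-4eGFP+ gate and higher in the IL-4eGFP- gate.

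**Figure D5:**
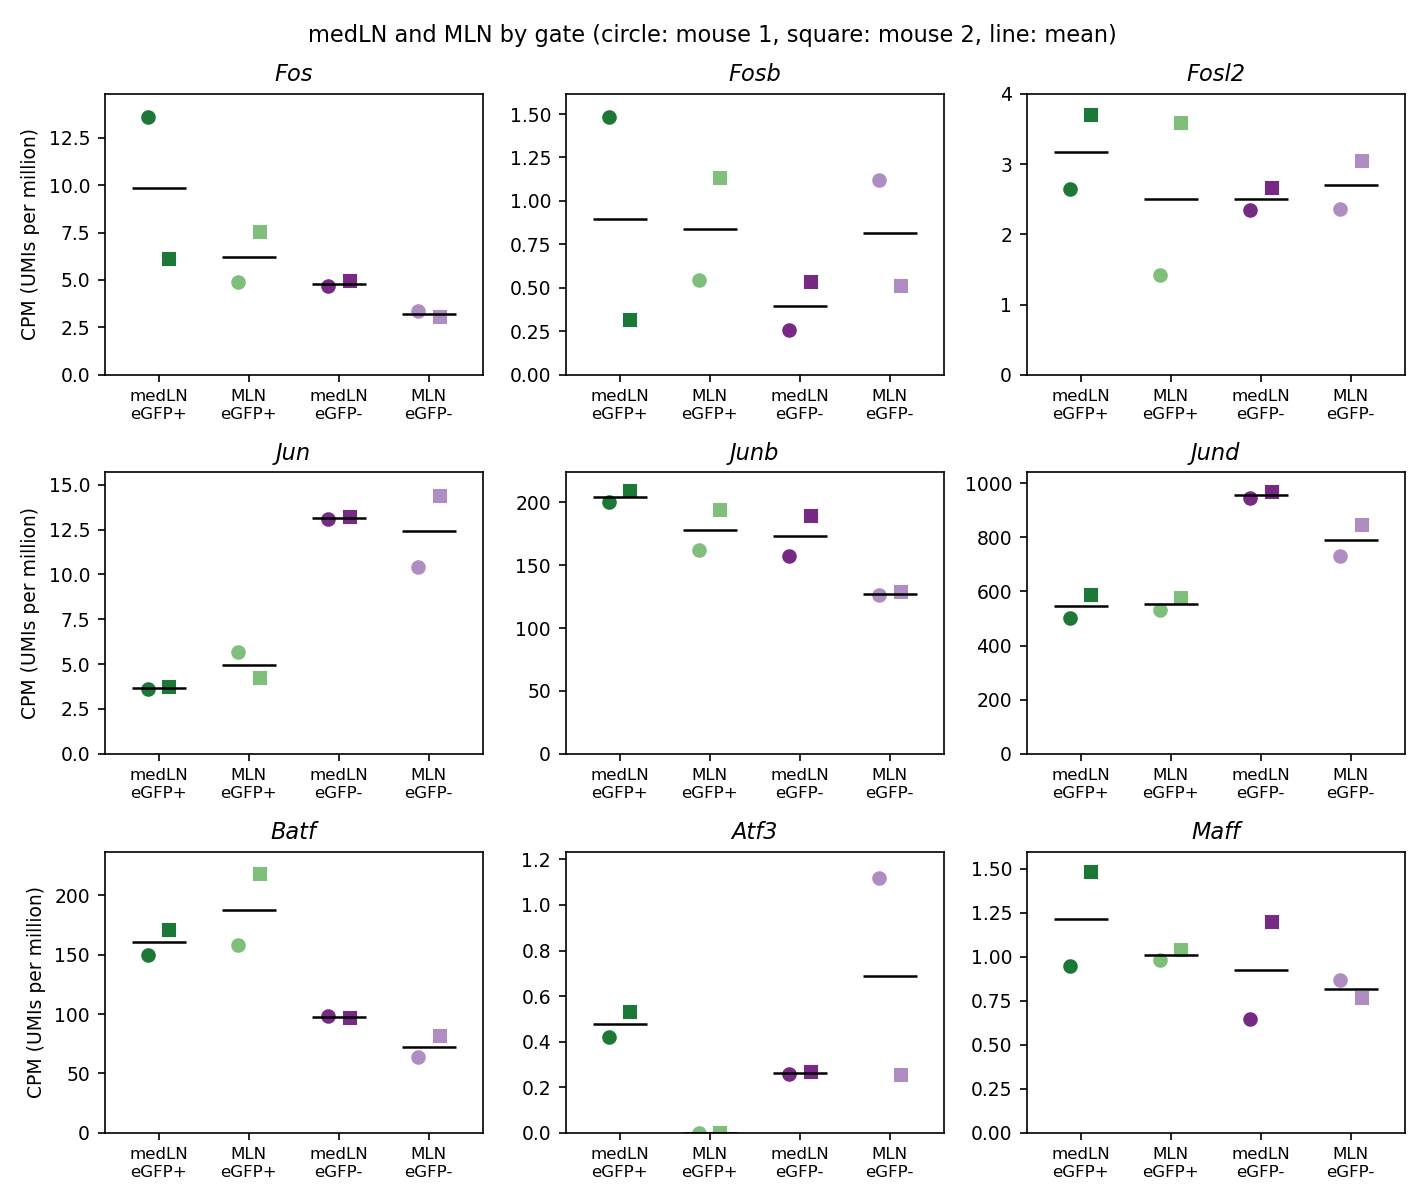
Level of each gene in CPM (linear axis from 0, a scale of its own in each panel) in medLN and MLN by IL-4eGFP gate, with circles for mouse 1, squares for mouse 2 and lines for the mean of 2 mice. *Jun* and *Jund* lie higher in the IL-4eGFP- samples (10.4 to 14.4 and 731 to 967 CPM) and *Batf* in the IL-4eGFP+ samples (150 to 218 CPM), and *Atf3* stays at or under 1.12 CPM in all 8.

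The genes most like each member were named by the correlation of log2(CPM + 1), centered within each run, over the 4 libraries and 8 hashtag samples among 5804 genes. They were *Dapk3*, *Fosb* and *Crip1* for *Fos* (r = 0.961 to 0.965), *Nabp1*, *Calca* and *Nfkbia* for *Fosl2* (0.990 to 0.992) and *Dusp1*, *Tnfaip3* and *Coq10b* for *Junb* (0.985 to 0.986). *Jun* was closest to *Tsc22d3*, *Man1a* and *Dusp10* (0.941 to 0.965), *Jund* to *Elovl5*, *Ifngr1* and *Camk1d* (0.975 to 0.976), and *Batf* to *Ppme1*, *Fam216a* and *Ctsz* (0.967 to 0.976). Between members, *Fosl2* and *Maff* had the highest correlation over these 12 sums (0.99) and *Jun* and *Batf* the lowest (-0.62). The points share libraries and mice, and the lung and MLN difference fills much of the spread, so these values are descriptions with no p.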

How the data were processed

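Sorted CD4+ T cells were profiled by single-cell 5′ RNA sequencing, and the authors deposited counts of UMIs for each gene and cell barcode, made with Cell Ranger and not normalized. For lung and MLN, per the labels, data of 2 sequencing runs were joined, and the methods name mm10 and Cell Ranger 2.1.1 and 3.0.1. For medLN and MLN, Cell Ranger 6.1.2 is named in the submitters' processing notes, and these notes list mm10 and GRCm38 for the samples of both runs. TCR contigs (counts of UMIs per contig) and hashtag counts were used as deposited by the authors to select cells. Both runs come from different mice, and each group has 2 mice.

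A cell was kept if it held more than 500 genes and 500 UMIs, less than 7% of them mitochondrial, with a novelty (log genes over log UMIs) of more than 0.8 and, in lung and MLN, a productive TCRα and TCRβ contig. Hashtags were called per library with HTODemux of Seurat 5.3.0, whose doublets (1256 and 1280 cells) and negatives were left out, and no further doublet caller was run. Both gates shared 147 barcodes (1.57% of the smaller library). TCR genes were left out of levels and tests. Counts were summed per library or hashtag sample, since cells are not replicates, and tested two-sided in edgeR 4.0.16 (filterByExpr, TMM scaling, quasi-likelihood fit) at a Benjamini-Hochberg adjusted p of 0.05, adjusted over every gene in the fit. DESeq2 1.42.0, its size factors, no filter, other cell criteria, mouse as a block and each sample left out were alternatives, and cells of the cycling gate were left out in an alternative chosen after seeing the data. SEs are the log2 fold change divided by the root of the quasi-likelihood F, and 95% intervals of log2 fold changes use the t quantile of the fit's degrees of freedom. Samples of a mouse come from the same animal, and the correlation of their deviations from the group means over genes was 0.0399 for lung and MLN, 0.236 and 0.112 for the IL-4eGFP+ and IL-4eGFP- nodes, 0.131 over the 8 hashtag samples, 0.00460 in cycling cells and 0.0310 in shared clones. In simulated data, 200 genes with a mean above 20 CPM were changed by a log2 fold change of 2, with 1 dispersion for all genes. Recovery at lower levels, where several members lie in the nodes, was not measured. The test found 200 with 9 false calls for lung against MLN (10588 genes). In the other comparisons it found 194 (shared clones) to 200 of them, with 4 (IL-4eGFP- nodes) to 19 (interaction) false calls. Intervals of shares are exact Clopper-Pearson 95% intervals (scipy 1.17.1), a count of 0 was read against a floor of 3 UMIs over the group, and both cover counting error only.

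The members and all gene lists were chosen with earlier results of these data known. Named are all 9 members and, from each other list, up to 3 called genes per direction with the largest change and a mean of at least 20 CPM, given for lung against MLN and for the gates. *Il5* and, for the gates, *Il13* and the fold of *Il4* meet that rule and were not printed, as their counts are at or near 0 in one group. Like genes are the 3 with the highest correlation for each member that passes the filter of lung against MLN and of the gates, which *Fosb*, *Atf3* and *Maff* missed in the gates. A further set of lung and MLN cells is not reported here. Promoter windows come from RefSeq (GRCm38.p6).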

Additional observations from a re-analysis of the deposited data

Results flagged for a closer look

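In 2 of 18 tests of a single sample against the other 3 of its gate in the medLN and MLN run, a level lay far from the rest, and chance flags about 1 in 20 such groups. *Atf3* was at 1.12 CPM (9 UMIs) in IL-4eGFP- cells of MLN 1, against 0.255 to 0.266 CPM in the other 3 IL-4eGFP- samples, with a gap of 0.987 of the whole range. *Maff* was at 1.48 CPM (14 UMIs) in IL-4eGFP+ cells of medLN 2, against 0.950 to 1.04 CPM in the other 3 IL-4eGFP+ samples, with a gap of 0.834 of the range. Both genes were under the count filter of the comparisons between these organs.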

How the results depend on the processing

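Of 254 log2 fold changes of the 9 genes refitted with 1 sample left out, 219 kept their direction and their side of the threshold, 2 lost and 14 gained a call, and 19 turned. A lone sample in a group was there assumed to vary like the other group. Of 321 under other settings, 311 kept both, 2 lost and 8 gained a call, and 0 turned. Between lung and MLN, 8 genes were called under each setting that kept every library. *Atf3* and *Fosl2* are among them, and their calls carry no weight, as in the results. *Batf* was at 0.46 without lung 2 and at -0.14 without lung 1. In the IL-4eGFP+ nodes, *Fos*, *Fosb* and *Jund* turned without medLN 1 (-0.05, -1.41 and 0.07), *Fosb* and *Fosl2* without MLN 1 (-0.35 and -0.20), where 1 gene was called, and *Jund* and *Batf* without MLN 2 (0.04 and 0.03). In the IL-4eGFP- nodes, 3 genes were called with the replicate block, and *Jun* (-0.20, without MLN 1) and *Fosl2* (0.04, without MLN 2) turned. Between the gates *Fosl2* turned without IL-4eGFP+ MLN 1 (0.18) or IL-4eGFP- MLN 2 (0.08). In the interaction, *Fos* turned without IL-4eGFP+ medLN 1 (-0.57) or MLN 1 (-0.16), *Fosl2* without the latter (-0.03) and *Maff* without IL-4eGFP- medLN 1 (-0.24). Without lung 1, *Batf* turned in cycling cells (-0.04) and shared clones (-0.56), and without MLN 2 it turned in shared clones (-0.04). With DESeq2 *Fos* lost its call in shared clones (4.75, adjusted p = 0.139), and *Maff* had no adjusted p there. Without MLN 1 *Maff* did not pass in shared clones (7.26, adjusted p = 0.0965), and the log2 fold change of *Fos* was 7.77 in cycling cells and 11.38 in shared clones, with 1 and 0 UMIs left in the MLN. The cause was not tested in any of these. The replicate block changed no other call of the 9 genes than those given for *Junb*, *Jund*, *Batf* and *Jun* beside the results.

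Over all genes, DESeq2 called 1687 genes between lung and MLN in place of 3284, 34 in place of 18 in the interaction, 260 in place of 707 in cycling cells and 192 in place of 493 in shared clones. Leaving out a sample gave 1907 to 3678, 4 to 13, 231 to 837 and 320 to 726 in the same order, 13 to 191 in place of 144 in the IL-4eGFP+ nodes and 98 to 194 in place of 19 in the IL-4eGFP- nodes. With no filter on low counts these nodes gave 47 and 2 and the interaction 68, and with the replicate block the interaction gave 44. Clones matched by TCRβ alone gave 792. With TMM or DESeq2 size factors the median log2 fold change of all genes lay within 0.02 of 0.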
